A study of Canis lupus familiaris with 13 samples.

Results

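MX1, MX2, OAS2 and IRF9 are genes of the interferon response, and each was carried by 1 probe set of a canine Affymetrix array. They were found as every probe set whose gene symbol in the array annotation was one of these names, which gave 4 of the 23836 probe sets that are not controls. The probe sets were 1582444_at for MX1, 1582533_at for MX2, 1591648_at for OAS2 and 1606103_at for IRF9. All 4 passed the filter on low signals and were among the 14302 tested. Heart tissue RNA had been measured on 13 arrays, 1 for each separately named sample. Mongrels made up the control group of 3 (named P1, P4, P9) and the paced group of 3 (LV01, LV02, LV04). Dilated cardiomyopathy, in which the ventricles widen and contract poorly, was present in the Doberman group of 3 (named K, L, R) and the Boxer group of 4 (numbered 1 to 4). The labels name no rate or length of pacing, no chamber and no age. Every diseased sample came from a Doberman or a Boxer and every control from a mongrel, so breed and disease cannot be told apart. The question was how heart RNA differs between dilated cardiomyopathy of the 2 breeds, pacing and control hearts.

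Interferons are secreted proteins that cells release on sensing foreign or misplaced nucleic acid. Type I interferons bind a receptor of IFNAR1 and IFNAR2, whose kinases phosphorylate STAT2. With IRF9, which binds DNA, it enters a complex that switches on a large set of genes. MX1 and MX2 are dynamin-like GTPases that block the replication of viruses, and OAS2 makes a short adenylate messenger that activates an RNA-cutting enzyme. In heart muscle these genes are known for their response to viral infection. In the RefSeq order of the dog assembly UU_Cfam_GSD_1.0, MX2 and MX1 are neighbours, OAS2 follows OAS1 and OAS3, and IRF9 lies between RNF31 and REC8. MX1 and MX2 are related in sequence, and whether their probes share signal was not tested.

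The 3 antiviral genes were high in 1 Doberman. In K, MX1, MX2 and OAS2 were each above every other array, while Dobermans L and R lay close to the remaining arrays in MX1 and OAS2. IRF9 behaved otherwise: it was higher in all 3 Dobermans than in any control, and was the only one of the 4 to pass the test, in the comparison of Dobermans with controls. In the Boxers and paced mongrels, no member passed against the controls.

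The signals are on the linear scale of the MAS5 software, scaled per array, so a signal is a brightness and levels of different probe sets cannot be set against each other. Changes are differences of log2(signal + 16), and p-values come from limma with 1 mean per group and a spread pooled over all 13 arrays. A probe set was called at a Benjamini-Hochberg adjusted p under 0.05. These p-values measure the spread between samples, which are named separately but not described as separate dogs or dissections. Median signals ran from 132 to 146 in controls and Boxers, 160 to 234 in Dobermans and 207 to 219 in paced mongrels. The GAPDH 3'/5' signal ratio rises as RNA breaks down. It was 3.62 for Doberman R, 2.10 for L and 1.08 for K, against 0.967 to 1.09 for the other 10 arrays. Doberman arrays resembled one another less, with average correlations within the group of 0.866 to 0.886, than arrays of the other groups, with 0.950 to 0.965. Dobermans L and R therefore stand apart on the GAPDH ratio, while K does not. On the log2 scale the actin control ratio was -0.085 for R, -1.92 for L and -1.90 for K. It was -3.17 to -1.56 on the other 10 arrays, so only R stood apart on that ratio. The 10 tested heart muscle markers had summed signals of 429300 in Doberman L, 422122 in R and 227045 in K, against 185179 to 302158 on the other arrays, and none of their values was 0. In Dobermans against controls 8 of the 10 changes were positive, while RYR2 was lower, with means of 3855 and 8208.

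IRF9, the partner of the STAT proteins, had signals of 731, 794 and 693 in the controls, with a mean of 739.5 ± 50.9 (SD, n = 3). In the Dobermans it had 1283 in K, 1090.2 in L and 995 in R, a mean of 1123 ± 147 (n = 3). All 3 Dobermans were above all 3 controls. The Boxers had 869.7, 928, 812.5 and 753, a mean of 841 ± 74.9 (n = 4). The paced mongrels had 967, 960.5 and 1021, a mean of 983 ± 33.2 (n = 3). The Boxers thus lay between the controls, whose range Boxer 4 entered, and the paced mongrels, whose range none of them reached. IRF9 was the steadiest of the 4: its spread within groups on the log2 scale lay at the 0.958 percentile of all tested probe sets.

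MX1 had signals of 332, 718 and 313 in the controls, a mean of 454 ± 228 (n = 3). It reached 6731 in Doberman K, against 650.4 in L and 532 in R, and the group mean of 2638 ± 3545 (n = 3) has an SD larger than itself. Dobermans L and R lay below control P4. Boxers 1 to 4 had 881, 735, 784.5 and 386, a mean of 697 ± 216 (n = 4). Paced mongrels had 447, 234 and 454, a mean of 378 ± 125 (n = 3). Boxers 1 to 3 lay above every control and Boxer 4 lay within the control range. The signal of K was 14.8 times the control mean, and those of L and R were 1.43 and 1.17 times.

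MX2, the neighbour of MX1, had signals of 235, 215 and 161.5 in the controls, a mean of 204 ± 37.9 (n = 3). In the Dobermans it had 1819 in K, 489 in L and 208.5 in R, a mean of 839 ± 860 (n = 3). Here L stood above every array but K, and R lay within the controls. The Boxers had 263, 316, 208.4 and 149, a mean of 234 ± 71.7 (n = 4), on both sides of the controls. The paced mongrels had 304.5, 266 and 278, a mean of 283 ± 19.8 (n = 3), all above the controls. MX2 and MX1 thus ordered the groups differently: 3 of 4 Boxers were above every paced mongrel in MX1 and 3 of 4 were below every paced mongrel in MX2.

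OAS2, the enzyme of the adenylate messenger, had signals of 146, 180.4 and 129 in the controls, a mean of 152 ± 26.2 (n = 3). It had 1222 in Doberman K, while L had 207 and R had 178, a mean of 536 ± 595 (n = 3). The Boxers had 238, 241, 191 and 176, a mean of 211 ± 32.8 (n = 4), and 3 of them were above every control. The paced mongrels had 115.5, 169 and 217, a mean of 167 ± 50.9 (n = 3). They overlapped the controls on both sides. Boxer 4 had the lowest signal of the Boxers in each of the 4 genes.

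**Figure D1:**
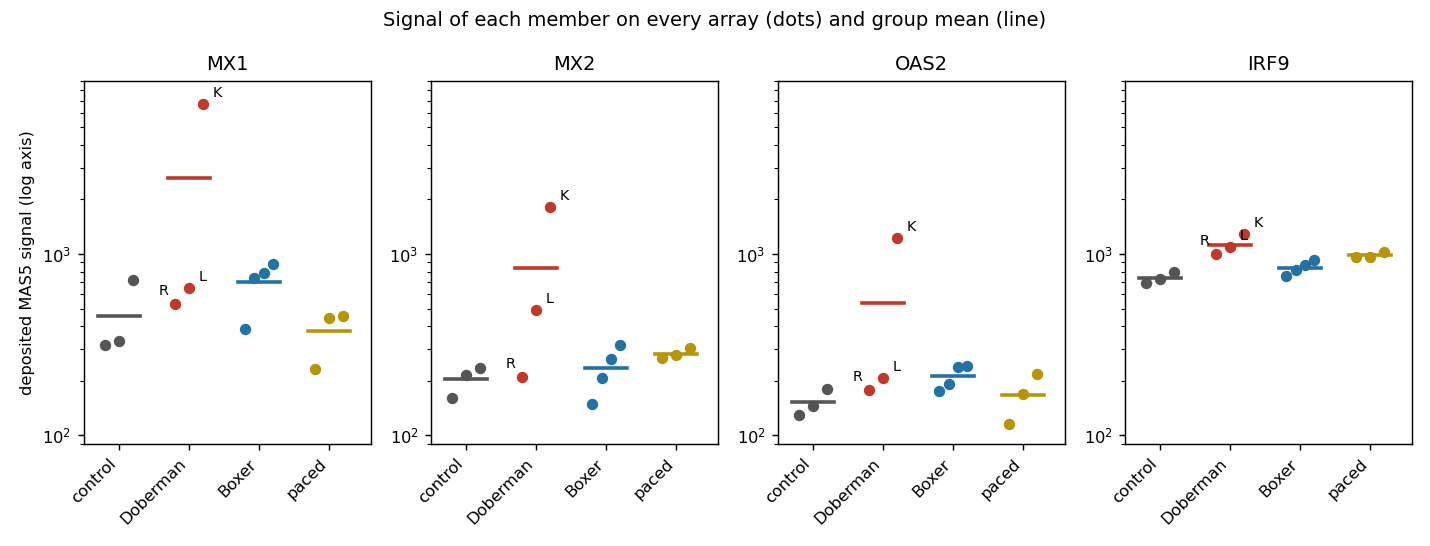
Deposited MAS5 signal (log axis) of MX1, MX2, OAS2 and IRF9 on each of the 13 arrays by group, with lines at the group means and letters naming the Dobermans. Doberman K is the highest array in all 4 panels, by 7.64 times the next array in MX1 and by 1.18 times in IRF9, where all 3 Dobermans lie above the controls.

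In the comparison of Dobermans with controls, IRF9 rose by 0.59 ± 0.16 on the log2 scale (SE; 3 samples against 3), which is 1.50-fold, with a 95% interval of 0.23 to 0.94 and an adjusted p of 0.0241. MX1 differed by 1.62 ± 0.72, a fold of 3.08, with an adjusted p of 0.103. MX2 differed by 1.45 ± 0.54 (2.73-fold) with an adjusted p of 0.0608, and OAS2 by 1.18 ± 0.53 (2.27-fold) with an adjusted p of 0.104. The smallest of the 4 changes was thus the one that passed, and the 3 larger ones had SEs of over 0.5. Of the 4 members 1 was called, beside 25.5% of all tested probe sets, and 1 of 4 had groups that did not overlap, beside 33.5%, so the count of members called is near the background. All 4 had an unadjusted p under 0.05 by limma, beside 6076 of the 14302 tested probe sets. Without control P1 the adjusted p of IRF9 was 0.0673, without control P9 it was 0.0708, and without Doberman L it was 0.0514. With each array centred on its median the change of IRF9 was 0.15 (adjusted p 0.625), a scaling that moved the median change of all tested probe sets from 0.19 to -0.25.

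The size of the 3 antiviral changes rested on Doberman K. Without K, MX1 differed from the controls by 0.46 ± 0.41 (1.38-fold), MX2 by 0.63 ± 0.35 (1.55-fold) and OAS2 by 0.32 ± 0.28 (1.25-fold), with adjusted p-values of 0.352, 0.143 and 0.344. IRF9 without K rose by 0.49 ± 0.15, with an adjusted p of 0.0182, in a fit that called 7340 of the 14302 tested probe sets. With L and R left out, K was the only Doberman and was assumed to vary like the other groups. MX1 was then higher by 3.95, MX2 by 3.08, OAS2 by 2.89 and IRF9 by 0.78. Those 4 values describe 1 sample against 3 controls.

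With the GAPDH ratio as a covariate, MX1 differed by 3.62 ± 0.58, MX2 by 3.12 ± 0.30 and OAS2 by 2.66 ± 0.40, with adjusted p-values of 0.0268, 0.00149 and 0.0220, and IRF9 by 0.80 ± 0.19 with 0.0730. The ratio is high only in L and R, so it goes largely with the difference between these and K. Without Doberman R, MX2 passed, at 2.15 ± 0.44 with an adjusted p of 0.0185.

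**Figure D2:**
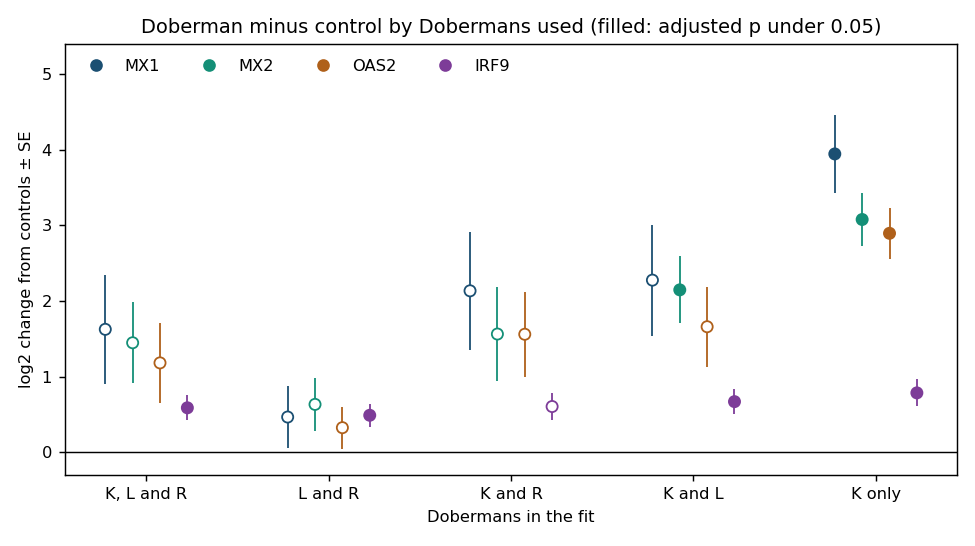
Change of each member from the controls on the log2 scale (points, bars ± SE) for all 3 Dobermans, for each left out, and for K alone; filled points have an adjusted p under 0.05. MX1 is at 1.62 with all 3 Dobermans, 0.46 without K and 3.95 with K alone, while IRF9 stays between 0.49 and 0.78.

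In the direct test of Dobermans against Boxers, no member was called by limma, beside 35.4% of all tested probe sets. An unadjusted p under 0.05 was found in 2 of 4, beside 6899 of the 14302 tested probe sets. IRF9 was nearest, higher in the Dobermans by 0.41 ± 0.15 with an adjusted p of 0.0527, and all 3 Dobermans were above all 4 Boxers. That made 1 of 4 members with groups that did not overlap, beside 34.0%. MX2 differed by 1.29 ± 0.50 (adjusted p 0.0592), MX1 by 0.98 ± 0.67 (0.256) and OAS2 by 0.74 ± 0.49 (0.241). Without K, MX1 was at -0.18 and OAS2 at -0.11, which turns the direction of both. MX2 passed without R, at 1.99 ± 0.42 (adjusted p 0.0160), and IRF9 without R, at 0.49 ± 0.16 (0.0498). IRF9 turned to -0.10 under median centring.

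In the Boxers against the controls, MX1 was at 0.64 ± 0.67 (95% interval -0.81 to 2.09), MX2 at 0.16 ± 0.50 (-0.93 to 1.24), OAS2 at 0.44 ± 0.49 (-0.62 to 1.50) and IRF9 at 0.18 ± 0.15 (-0.15 to 0.51). The adjusted p-values were 0.896, 0.982, 0.911 and 0.873. None of the 4 members was called by limma, beside 0.0420% of all tested probe sets, and none had groups apart, beside 15.7%. None had an unadjusted p under 0.05, beside 1058 of the 14302 tested probe sets. The intervals of MX1, MX2 and OAS2 still include rises of over 1 on the log2 scale. They are built on the spread pooled over all 13 arrays, the Dobermans included. The log2 SDs of OAS2 were 0.21 in Boxers, 0.22 in controls and 1.49 in Dobermans. Those of MX1 were 0.52, 0.65 and 2.01, and those of MX2 0.43, 0.26 and 1.53. The widths thus do not describe the Boxers and controls alone. Of the 4 Boxers, 3 were above every control in MX1, OAS2 and IRF9, and 2 in MX2.

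In the paced mongrels against the controls, no member was called by limma, beside 12.2% of tested probe sets. An unadjusted p under 0.05 was found in 1 of 4, beside 4100 of the 14302 tested probe sets. IRF9 was at 0.40 ± 0.16 (95% interval 0.053 to 0.76, adjusted p 0.121) and MX2 at 0.46 ± 0.54 (0.614), and in both genes all 3 paced mongrels were above all 3 controls. This made 2 of 4 members with groups apart, beside 44.0% of all tested probe sets. MX1 was at -0.21 ± 0.72 (0.875) and OAS2 at 0.10 ± 0.53 (0.922), with overlapping groups. IRF9 passed at the same change where the pooled spread was smaller: without Doberman K, at an adjusted p of 0.0491, and without L and R, at 0.0302. Median centring, which moved the median change of all tested probe sets from 0.063 to -0.45, turned MX2 to -0.052, OAS2 to -0.41 and IRF9 to -0.10.

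Dobermans and paced mongrels differed by 1.83 ± 0.72 in MX1 (adjusted p 0.0766), with all 3 Dobermans above all 3 paced mongrels. MX2 was at 0.99 ± 0.54 (0.188), OAS2 at 1.08 ± 0.53 (0.145) and IRF9 at 0.18 ± 0.16 (0.436). Limma called none, beside 24.6% of tested probe sets, and 1 had an unadjusted p under 0.05, beside 5558 of the 14302. Groups were apart in 1 member, beside 32.1%. Without Doberman R, MX1 passed at 2.49 ± 0.74 (adjusted p 0.0363) and MX2 at 1.69 ± 0.44 (0.0227). Boxers and paced mongrels differed by 0.85 ± 0.67 in MX1, -0.30 ± 0.50 in MX2, 0.34 ± 0.49 in OAS2 and -0.23 ± 0.15 in IRF9, with adjusted p-values of 0.409, 0.717, 0.672 and 0.330. Limma called none, beside 17.7%, and 0 of 4 had an unadjusted p under 0.05, beside 4809 of the 14302. IRF9 alone had groups apart, with every Boxer below every paced mongrel, beside 43.4% of all tested probe sets.

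**Figure D3:**
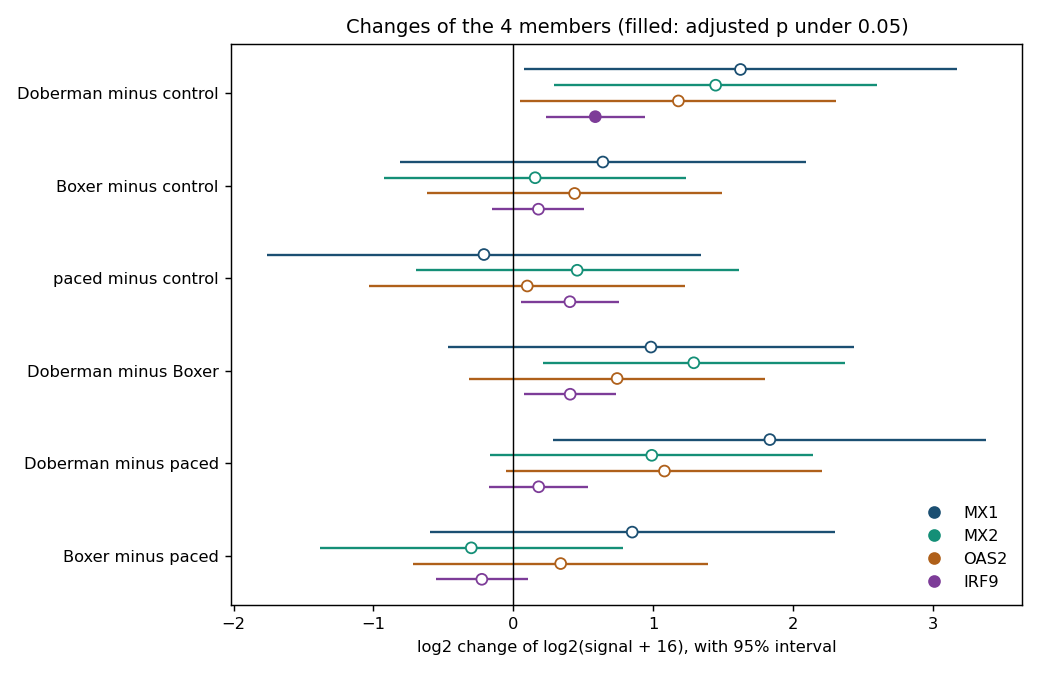
Log2 change of each member in the 6 comparisons, with 95% intervals; the filled point has an adjusted p under 0.05. Only IRF9 in Dobermans against controls, at 0.59 with an interval of 0.23 to 0.94, is filled, and the intervals of MX1, MX2 and OAS2 are wider than that of IRF9 in each comparison.

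By mean log2 level, the groups ran from paced through control and Boxer to Doberman in MX1. In OAS2 they ran from control through paced and Boxer to Doberman. MX2 and IRF9 shared the order control, Boxer, paced and Doberman. The Dobermans were at the top in all 4 genes, but no pair of neighbouring groups in any of these orders passed the test. The within-group spread lay at the 99.0 percentile of all tested probe sets in MX1, 94.0 in MX2 and 93.0 in OAS2.

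Measured as the log2 distance from Doberman K to the highest of the other 12 arrays, MX1 ranked 1, OAS2 ranked 2 and MX2 ranked 5 of 14302 tested probe sets. K was 7.64 times the next array in MX1 (Boxer 1), 5.08 times in OAS2 (Boxer 2) and 3.72 times in MX2 (Doberman L). IRF9 in K was 1.18 times the next array, and 2.17% of tested probe sets had a distance as large. Only 13 probe sets had K above every other array by 1 or more on the log2 scale, against 117 with Doberman L on top in this way, 96 with R and 0 to 13 with any other array. Of those 13, 4 had no gene symbol, and the named genes besides the members were ISG15, UPP1, EPSTI1, C1QC, C1QA and CXCL10. ISG15, EPSTI1 and CXCL10 are themselves interferon-induced, and C1QA and C1QC encode complement subunits made by macrophages. This ranking describes 1 sample and carries no test.

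**Figure D4:**
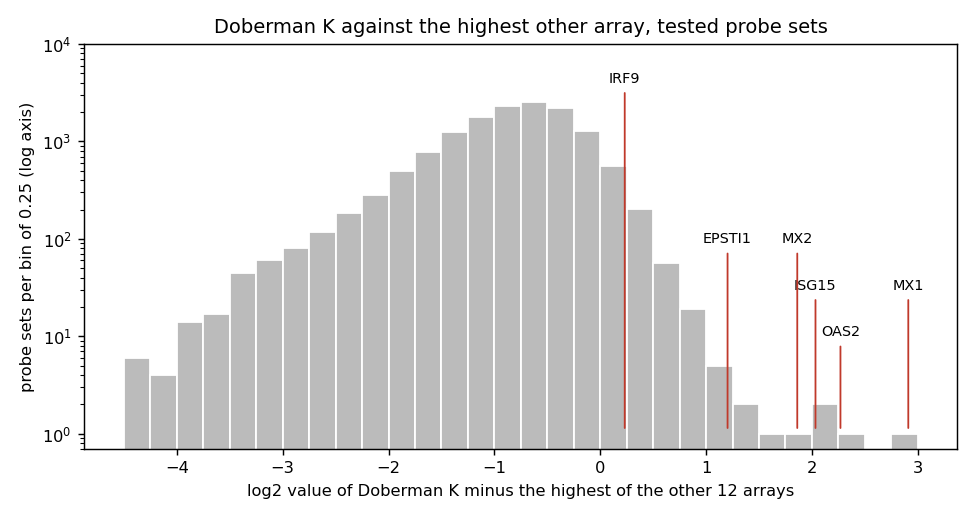
Histogram over the 14302 tested probe sets of the log2 value of Doberman K minus the highest of the other 12 arrays, in bins of 0.25 with a log count axis. MX1 lies at 2.91, OAS2 at 2.27, ISG15 at 2.03, MX2 at 1.86 and EPSTI1 at 1.20, while IRF9 lies at 0.23.

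The rest of the pathway was read from 8 lists of 141 symbols, of which 39 were on the array and 33 were tested, 29 of them besides the members. Among antiviral effectors, a list that holds MX1, MX2 and OAS2, 7 genes were tested and K was the highest array in 6, as it was in 398 of all 5242 tested genes (7.59%). The other effectors were CMPK2, a nucleotide kinase, and EPSTI1, NMI and XAF1. EPSTI1 had 1741 in K and 238 to 747 on the other arrays, and XAF1 had 424 in K and 120.5 to 330 elsewhere. Limma called none of the 7 in Dobermans against controls, beside 25.5% of all tested probe sets. An unadjusted p under 0.05 was found in 3 of the 7, beside 6076 of the 14302 tested probe sets. All 7 changes there were positive with a median of 0.55, beside a median of 0.041 over all tested genes. With MX1, MX2 and OAS2 left out of the list, the median was 0.47. Limma also called none in Boxers or in paced mongrels against controls, beside 0.0420% and 12.2% of all tested probe sets. Of the 7 effectors, 0 and 1 had an unadjusted p under 0.05, beside 1058 and 4100 of the 14302 tested probe sets. The medians there were 0.40 and -0.069, beside -0.017 and -0.042 over all tested genes. With the same members left out they were 0.36 and -0.20. CMPK2 was higher in Dobermans than in paced mongrels, by 1.20 ± 0.27 (adjusted p 0.00826). Its mean signals were 134 in paced mongrels, 233 in controls and 328.5 in Dobermans. Against the controls it was at -0.74 ± 0.27 in paced mongrels (adjusted p 0.0909) and at 0.46 ± 0.27 in Dobermans (0.214), and neither passed. The other 4 effectors on the array, IFIT3, PARP12, SP100 and TRIM14, lay under the filter and were not tested. IFIT3 had 568 in K and 15.6 to 112 elsewhere. PARP12, with 27.2 in K and 15.6 to 44.0 elsewhere, and TRIM14, with 27.9 in K and up to 86.1 elsewhere, had K within the range of the other arrays, as did 2 of the 3 SP100 probe sets.

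ISG15, a ubiquitin-like protein that interferon induces and that is attached to other proteins, had a signal of 2251 in Doberman K, while L had 61.6 and R had 271. The controls had 159, 249 and 186, the Boxers 538, 388, 391 and 138, and the paced mongrels 378, 240.0 and 409. K was again on top, and L was the lowest of all arrays. ISG15 was at 0.81 ± 0.85 in Dobermans against controls (adjusted p 0.479), and without K it was at -0.50. In Boxers it was at 0.71 ± 0.80 (0.912) and in paced mongrels at 0.73 ± 0.85 (0.610). UBA7, which activates ISG15 for its attachment, rose in Dobermans by 1.36 ± 0.47 (adjusted p 0.0492), a call that held in 4 of 22 alternative settings.

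**Figure D5:**
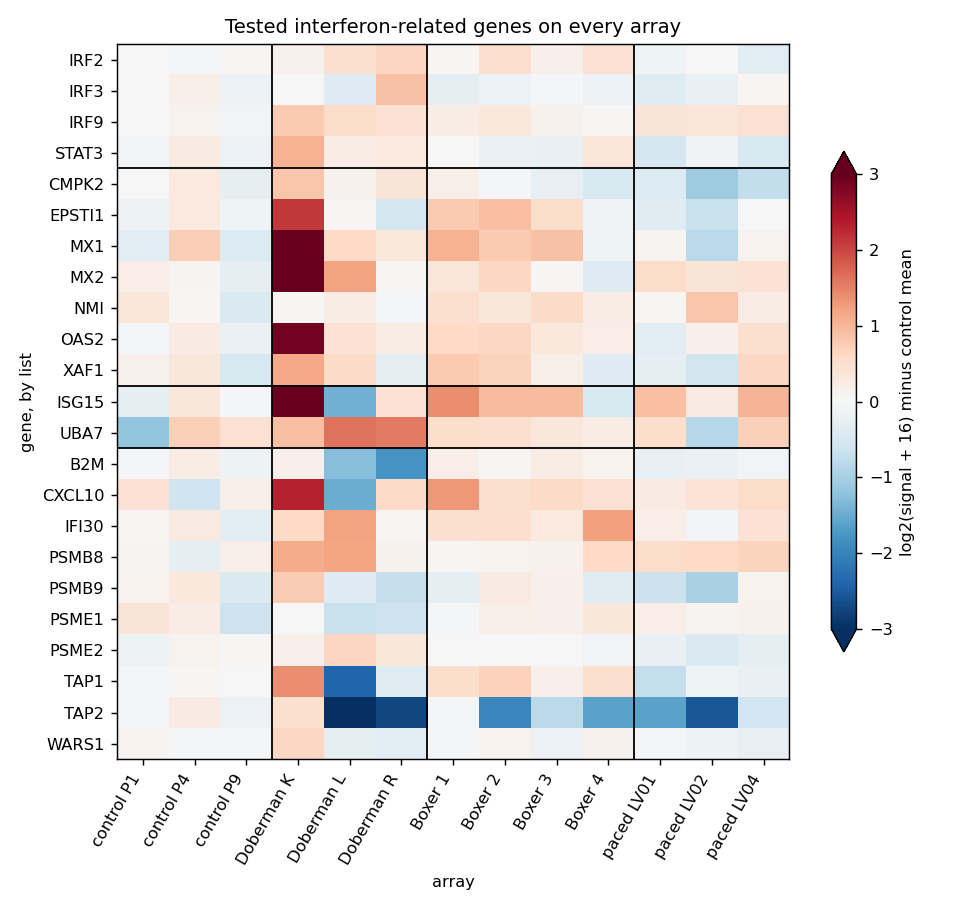
Log2(signal + 16) minus the control mean for the 23 tested genes of 4 interferon lists (rows, STAT and IRF factors first, then antiviral effectors, ISG15 and its conjugation, and interferon gamma targets) on every array (columns); colours end at 3 in both directions. Doberman K is darkest red in MX1, MX2, OAS2 and ISG15, and Dobermans L and R have low values in B2M and TAP2.

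Upstream of IRF9, the only interferon tested was IFNG, the type II interferon, which acts through another receptor. Its signals were 43.2 to 64.4 in controls, 92.0 in Doberman K, 231 in L, 132 in R, 58.8 to 96.3 in Boxers and 232 to 303 in paced mongrels. The means were 56.3 in controls, 84.8 in Boxers, 151.5 in Dobermans and 267 in paced mongrels. Those of controls and Boxers lie under the filter level of 108, so IFNG was tested only because of the groups where it is high, and its levels are given as a description with no test. The array with the highest IFNG was thus a paced mongrel, and K was the lowest Doberman. Among 5 tested receptors and kinases, IFNGR2, a receptor chain for IFNG, rose by 0.47 ± 0.16 in Dobermans (adjusted p 0.0462), and IL10RB, a chain shared by the receptors of lambda interferons and interleukin-10, rose by 1.81 ± 0.32 (0.00538). The call of IFNGR2 held in 6 of 23 alternative settings, with changes of 0.028 to 0.58, and that of IL10RB in 20 of 23. IL10RB had 2104 in Doberman L, 1184 in R and 683 in K, which in MX1 was the highest. IFNAR1, IFNGR1 and JAK1 did not pass in any comparison.

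Of the factors that carry the signal, STAT3, IRF2, IRF3 and IRF9 were tested, and IRF9 alone was called in Dobermans against controls. STAT3 was higher in Dobermans than in paced mongrels by 0.88 ± 0.24 (adjusted p 0.0203) and IRF2 by 0.57 ± 0.19 (0.0426). The call of STAT3 held in 19 of 23 alternative settings and that of IRF2 in 7 of 23, and without Dobermans L and R IRF2 was at 0.28 (adjusted p 0.3998). No tested probe set carried the symbols STAT2, OAS1, OAS3 or OASL, and these genes were not analysed here. TLR9, a sensor of DNA and the only tested gene of the sensor list, rose in Dobermans by 0.84 ± 0.25 (adjusted p 0.0299), with 849 in K, 1295 in L and 1856 in R. Limma called none of 3 inhibitors in Dobermans against controls (1 had an unadjusted p under 0.05), beside 25.5% of all tested probe sets called and 6076 of 14302 with such a p.

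Interferon gamma targets gave 10 tested genes, with K the highest array in 5: CXCL10, PSMB9, TAP1, TAP2 and WARS1. Over all 5242 tested genes K was the highest array in 7.59%. In Dobermans against controls limma called 1 of 10 as higher and none as lower, beside 25.5% of all tested probe sets called in either direction. An unadjusted p under 0.05 was found in 4 of 10, beside 6076 of the 14302 probe sets. These were PSMB8 and PSME2, which were higher, and TAP2 and B2M, which were lower. TAP2 was at -1.75 ± 0.78 (adjusted p 0.106) and B2M at -0.96 ± 0.35 (0.0546). The median change was -0.060, beside 0.041 over all tested genes. The gene called was PSMB8, an immunoproteasome subunit, at 0.81 ± 0.27 (adjusted p 0.0460), called in 4 of 22 alternatives. CXCL10, a T cell attractant, had 1003 in K and 57.3 to 488 on the other arrays. Limma called 0 of 10 in Boxers and 0 of 10 in paced mongrels against controls, beside 0.0420% and 12.2% of all tested probe sets. In each, 1 of 10 had an unadjusted p under 0.05, beside 1058 and 4100 of the 14302 probe sets.

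Against the paced mongrels, further list genes passed besides CMPK2, STAT3 and IRF2. The Dobermans were higher in IFNGR2 by 0.65 ± 0.16 (adjusted p 0.0120), IL10RB by 1.66 ± 0.32 (0.00327), TLR9 by 0.97 ± 0.25 (0.0147) and PSME2, a proteasome activator subunit, by 0.69 ± 0.16 (0.00974). Without Dobermans L and R, IFNGR2, TLR9 and PSME2 no longer passed in this comparison, with adjusted p-values of 0.0802, 0.264 and 0.0599, and TLR9 was at 0.40, while IL10RB passed at 0.87 (0.0399). The Boxers were higher than the paced mongrels in PIAS2, an inhibitor of STAT factors, by 0.69 ± 0.21 (0.0342). Without Dobermans L and R, the calls of IFNGR2, UBA7, TLR9 and IL10RB in Dobermans against controls were lost, with adjusted p-values of 0.398, 0.508, 0.568 and 0.0582, and that of PSMB8 was kept at 0.0492. In the same fit MX1 was higher by 3.95, MX2 by 3.08 and OAS2 by 2.89, with K as the only Doberman.

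Markers of other cells were also read, and their relation to the member values was not computed. Summed signals of 13 tested macrophage markers were 3244 to 5453 in controls, 12139 in Doberman K, 8243 in L, 3943 in R, 4727 to 11919 in Boxers and 3926 to 4846 in paced mongrels. K was the highest array in 4 of the 13, and no value of the 19 macrophage probe sets was 0. Boxer 4 had the highest sum of the Boxers, 11919, close to that of K, and at the same time the lowest MX1, MX2, OAS2 and IRF9 of the Boxers. Summed signals of 5 lymphocyte markers were 898 to 1283 in controls, 1305 in K, 2791 in L and 2108 in R, 761 to 1004.5 in Boxers and 1474 to 1724 in paced mongrels. In paced mongrels against controls 4 of the 5 changes were positive, but CD3E had means of 34.6 and 356. NKG7 had a mean of 628 in paced mongrels and 78.7 to 107.6 in the other groups, under the filter level. The paced sums therefore cannot be read as more lymphocyte RNA. Summed signals of 8 fibroblast markers were 13422 to 21761 in controls, 25702 in K, 31733 in L, 20648 in R, 19604 to 31893 in Boxers and 14550 to 17424 in paced mongrels, and 3 of the 8 rose in Dobermans against controls, beside 25.5% of all tested probe sets called in either direction. A sum follows its brightest probe sets, and DCN alone had a mean of 16792 in Dobermans. As mean log2 values the 8 fibroblast markers gave 11.06 in K, 10.60 in L and 9.77 in R. The controls had 9.49 to 10.53 on this scale, so the order of K and L was the reverse of that by sums. In tissue RNA, more cells of a type and more RNA per cell cannot be told apart. The part of these cells in the member values was not tested.

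Across the 13 arrays the log2 values of MX1 and OAS2 correlated at r = 0.93 (Spearman's rho 0.83), of MX2 and OAS2 at 0.88 (0.50) and of MX1 and MX2 at 0.84 (0.36). IRF9 correlated with MX2 at 0.82 (0.77), with OAS2 at 0.67 (0.51) and with MX1 at 0.61 (0.38). These are descriptions over arrays that fall into 4 groups and share K as an extreme point. Without K (12 arrays), the values were 0.63, 0.33 and 0.29 among MX1, MX2 and OAS2 in that order, and 0.78, 0.38 and 0.21 with IRF9. MX2 and IRF9 thus had the highest correlation without K, and MX1 and MX2, the neighbouring genes, had one of the lowest.

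The genes most alike each member were taken as the 5 with the highest Pearson r over the 13 arrays, of 5096 candidates. For MX1 they were EPSTI1 (0.92), DGKA (0.86), TUBB2A (0.83), GCN1 (0.80) and LGALS9 (0.79). For OAS2 they were DGKA (0.89), EPSTI1 (0.87), PPME1 (0.84), TUBB2A (0.82) and C1QC (0.78). EPSTI1, DGKA and TUBB2A were on both lists. For MX2 they were ZNFX1 (0.89), WFDC1 (0.85), PFKL (0.83), ADM (0.82) and LARP6 (0.79), and for IRF9 WFDC1 (0.92), ADM (0.86), CCL4 (0.85), ALDH8A1 (0.83) and USP21 (0.82). WFDC1 and ADM were shared by MX2 and IRF9. Without K, EPSTI1 still had 0.81 with MX1, while GCN1 fell to 0.26 and LARP6 with MX2 to 0.053; the 5 genes of IRF9 kept 0.72 to 0.88.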

How the data were processed

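Heart tissue RNA of 13 samples was extracted with Trizol and an RNeasy column and hybridised as biotin-labelled target, per the labels' protocols. The authors deposited intensity values made with MAS5 (version not given in the sources used here), per the submitters' processing notes; they are linear signals from 0 to 95340. The 77 control probe sets were set aside. Values were analysed as log2(signal + 16), and 14302 probe sets with a mean at or above the 40th percentile (6.95, equal to a signal of 108) were kept for testing.

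Limma 3.58.1, run in R 4.3.3, estimated the 4 group means from the 13 arrays together, leaving 9 residual degrees of freedom, and moderated the variances along signal level. P-values were adjusted by Benjamini-Hochberg across the tested probe sets of a comparison and called under 0.05. Where several tested probe sets carried a list gene, the brightest on average stood for it. Named genes were the members, up to 4 called genes per list, direction and comparison, ISG15 and the 5 most alike genes; further genes named for high values in Doberman K were chosen after their values were seen. The number of arrays limits the precision. The pipeline was tested on simulated data. Members and lists were chosen with earlier results of these data known. Alternatives were each sample left out, Dobermans L and R left out, median centring, quantile normalization, a pseudocount of 1 or 64, no filter, a 70th percentile filter, only the compared groups, array weights and the GAPDH ratio as a covariate. Figures were drawn with matplotlib 3.10.9. Positions in the RefSeq gene table were used only to order neighbouring genes; no coordinates or sequences are given.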

Additional observations from a re-analysis of the deposited data

Results flagged for a closer look

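No member differed between Dobermans and Boxers past the threshold, but 6 of the 29 other tested genes of the interferon lists had changes from the controls that differed between the breeds in limma's direct comparison, beside 1795 of all 5242 tested genes and 35.4% of probe sets, so the count is not above the background. IFNGR2 was higher in Dobermans by 0.57 ± 0.15 on the log2 scale (adjusted p 0.0137), IL10RB by 1.51 ± 0.30 (0.00521), TLR9 by 1.15 ± 0.23 (0.00576) and PIAS1, an inhibitor of STAT factors, by 0.52 ± 0.18 (0.0418). B2M, the light chain of MHC class I, was at -1.11 ± 0.32 (0.0209) and PIAS2, another inhibitor, at -0.88 ± 0.21 (0.00950). Without Dobermans L and R, which have the high GAPDH ratios of 2.10 and 3.62, none of the 6 passed, and B2M was at 0.018.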

How the results depend on the processing

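The 24 member changes (4 genes, 6 comparisons) were recomputed under up to 23 alternatives each, 540 values in all: 491 kept their direction and side of the threshold, 7 lost a call (all of them IRF9 in Dobermans against controls), 28 gained one and 14 turned direction. Turned values in paced mongrels against controls were MX1 at 0.16 without P4 and 0.090 without LV02 (-0.42 to 0.16 with 1 sample left out), MX2 at -0.052 and IRF9 at -0.10 under median centring, and OAS2 at -0.42 under quantile normalization, -0.41 under median centring, -0.075 with the GAPDH covariate and -0.094 without LV04 (-0.094 to 0.32 with 1 sample left out). In Dobermans against Boxers, MX1 was at -0.18 and OAS2 at -0.11 without K (up to 1.64 and 1.22 without R), and IRF9 at -0.10 under median centring. In Boxers against paced mongrels, MX2 was at 0.14 under quantile normalization and 0.28 under median centring, and IRF9 at 0.35 under median centring. Among list genes, ISG15 in Dobermans against controls was at -0.50 without K (up to 1.93 without L), and B2M in Dobermans against Boxers at 0.018 without L and R. The call of IRF9 was lost with only the compared groups (adjusted p 0.162), array weights (0.0716) and the GAPDH covariate (0.0730), besides the settings named with it. The cause was not tested.

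Members called in Dobermans against controls (1) numbered 4 without L and R, 3 with the GAPDH covariate, 0 under median centring, with only the compared groups and with array weights, and 0 to 2 with 1 sample left out. In Dobermans against Boxers (0) they numbered 3 without L and R, 1 under quantile normalization, 1 at the 70th percentile filter, 3 with the GAPDH covariate and 0 to 2 with 1 sample left out. In Dobermans against paced mongrels (0) they numbered 3 without L and R, 3 with the GAPDH covariate and 0 to 2 with 1 sample left out. In paced mongrels against controls (0) they numbered 1 without L and R, 1 with array weights and 0 to 1 with 1 sample left out.

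Of all tested probe sets, those called in Dobermans against controls (3644) numbered 388 without L and R, 2157 at the 70th percentile filter, 20 with only the compared groups, 95 with the GAPDH covariate and 1192 (without L) to 7340 (without K) with 1 sample left out. In Boxers against controls (6) they numbered 119, 3 and 25 in the first 3 of these settings, 254 with array weights and 5 (without P1) to 16 (without K). In paced mongrels against controls (1747) they numbered 4461 without L and R, 3924 under median centring, 4389 with no filter, 220 at the 70th percentile, 3576 with only the compared groups, 4222 with array weights, 2935 with the covariate and 784 (without LV01) to 3335 (without K). In Dobermans against Boxers (5066) they numbered 306 without L and R, 2602 at the 70th percentile, 2114 with only the compared groups, 56 with the covariate and 2211 (without L) to 8089 (without K). In Dobermans against paced mongrels (3514) they numbered 2315 without L and R, 5974 with no filter, 1747 at the 70th percentile, 524 with only the compared groups, 1028 with the covariate and 2177 (without LV02) to 6166 (without K). In Boxers against paced mongrels (2536) they numbered 5182 without L and R, 5403 under median centring, 5720 with no filter, 407 at the 70th percentile, 5197 with only the compared groups, 5280 with array weights and 1246 (without LV04) to 4187 (without K). Of the 5 genes most alike each member, 0 to 3 were shared with those found by Spearman's rho, without L and R or from deviations from group means. No paired analysis was possible because the groups share no replicate numbers.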
